A study of Mus musculus with 12 samples.

Results

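The genes described here carry symbols of nuclear subunits of the mitochondrial respiratory chain and of ATP synthase. They were measured in cells sorted as macrophages from mouse tumours. The genes were chosen by symbol, as those that start with Ndufa, Ndufb, Ndufc, Ndufs, Ndufv, Sdha to Sdhd, Uqcr, Cox4i, Cox5, Cox6, Cox7, Cox8 or Atp5, without the assembly factors named Ndufaf and Sdhaf and without pseudogenes. The rule found 85 of 24346 symbols. Of these, 82 were among the 11808 genes with at least 1 FPKM (fragments scaled by the length of the transcript and the depth of the library) in at least 3 libraries. By complex, 38 of 38 symbols of complex I, 4 of 4 of complex II, 8 of 8 of complex III, 15 of 18 of complex IV and 17 of 17 of ATP synthase were kept. Complexes were assigned by the start of the symbol alone, so Atp5sl, known for complex I assembly, counts under ATP synthase. Cox7b2, Cox8b and Cox8c were not. Symbols of the 13 subunit genes of mitochondrial DNA were looked for, and 0 were among the 24346, so these genes were not analysed here.

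The respiratory chain lies in the inner mitochondrial membrane. Complex I takes electrons from NADH and complex II, succinate dehydrogenase, takes them from succinate. Complex III passes them to cytochrome c, complex IV passes them to oxygen, and ATP synthase uses the resulting proton gradient to make ATP. Macrophages are known to depend on this respiration to different degrees, more after interleukin 4 and less after lipopolysaccharide.

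The mice carried Arg1-RFP, a red fluorescent reporter of arginase 1, an enzyme of arginine breakdown, and bore tumours of B16F10, a mouse melanoma line, or of MC38, a mouse colon carcinoma line. Cells were gated as negative for B220, CD90.2, NK1.1, Ly6G and Ly6C and as positive for CD11b, F4/80, MHCII and CD45, and then split by the reporter, into RFP+ and RFP- cells. Each of the 4 groups (B16F10 RFP+, B16F10 RFP-, MC38 RFP+ and MC38 RFP-) had 3 bulk RNA-seq libraries, which the titles number 12, 11 and 3 for B16F10 and 1, 2 and 3 for MC38. The design text names 3 mice without saying which animal each library came from. P-values therefore measure only the spread between these libraries, which may be technical. The sources used here give neither the age of the mice nor how the reporter allele was built.

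Arg1 itself ran from 615 to 916 FPKM in RFP+ and from 56.2 to 125 FPKM in RFP- libraries of B16F10, and from 394 to 553 and from 40.6 to 58.5 FPKM in those of MC38. Total FPKM per library ran from 614875 to 815591, the highest in B16F10 RFP- number 12. The B16F10 libraries were the shallower: the FPKM that a single read stood for, relative to MC38 RFP- number 2, was 3.03 to 3.63 in B16F10 and 1 to 1.18 in MC38. The 12 pigment cell markers summed to 8468 to 11111 FPKM in the B16F10 libraries and to 5.56 to 12.1 FPKM in those of MC38. The 15 macrophage core genes in the files summed to 6222 to 14956 FPKM in B16F10 and to 31796 to 41425 FPKM in MC38. In B16F10 number 11 the pigment sums, 11111 (RFP+) and 11088 FPKM (RFP-), exceeded the core sums, 8004 and 6222 FPKM. In the remaining B16F10 libraries the core sums were the larger. Red cell markers summed to 70.6 to 346 against 2.84 to 12.8 FPKM, and neutrophil markers to 33.0 to 843 against 40.9 to 50.1 FPKM. Lists for T, NK, B, dendritic, epithelial, endothelial and fibroblast cells and platelets stayed at or under 88.5 FPKM in every library.

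Promoters of many nuclear subunit genes are known to bind NRF1, GABPA (also called NRF2) and YY1. Windows of 300 bases, from 250 before to 50 after a RefSeq start on GRCm38.p6, were at hand for 67 of the 85 genes. The NRF1 motif GCGCANGCG, read on both strands, was in 29.2% of the 72 windows of these genes, against 6.25% of all 32851 windows and 13.3% of the 11524 windows of genes kept. The YY1 motif AAGATGGCG, on both strands, was in 9.72% of the members' windows, 1.4% of all and 3.07% of those kept, and the GABPA motif CCGGAAGT in 6.94%, 3.89% and 8.23%. At least 1 of the motifs, none of which overlapped another in these windows, was found in 29 of the 67 genes. The windows below belong to the gene with the largest difference between tumours (Ndufa4), a complex I gene high in B16F10 that holds an NRF1 motif (Ndufa5), a complex I gene with NRF1 and YY1 motifs (Ndufs6), and a complex IV isoform whose level in MC38 was low (Cox7a1). Capitals mark the motif matches, which are a description and not evidence of binding. Ndufa4 and Cox7a1 have none of these letters in the window. The windows lie at chr6:11907401-11907700 (minus strand), chr6:24527477-24527776 (minus), chr13:73328433-73328732 (minus) and chr7:30183921-30184220 (plus).
Ndufa4: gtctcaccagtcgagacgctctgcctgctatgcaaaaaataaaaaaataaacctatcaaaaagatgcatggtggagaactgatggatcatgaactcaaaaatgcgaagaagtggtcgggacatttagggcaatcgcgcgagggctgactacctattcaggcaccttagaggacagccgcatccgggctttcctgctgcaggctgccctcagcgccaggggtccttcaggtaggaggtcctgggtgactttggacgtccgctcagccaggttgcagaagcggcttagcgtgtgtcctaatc
Ndufa5: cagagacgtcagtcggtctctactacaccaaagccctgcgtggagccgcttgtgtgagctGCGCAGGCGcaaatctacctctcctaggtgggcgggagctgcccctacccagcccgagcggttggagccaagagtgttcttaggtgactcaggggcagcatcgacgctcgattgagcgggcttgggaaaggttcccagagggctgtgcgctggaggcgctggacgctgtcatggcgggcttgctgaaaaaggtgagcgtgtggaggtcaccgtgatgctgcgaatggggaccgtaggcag
Ndufs6: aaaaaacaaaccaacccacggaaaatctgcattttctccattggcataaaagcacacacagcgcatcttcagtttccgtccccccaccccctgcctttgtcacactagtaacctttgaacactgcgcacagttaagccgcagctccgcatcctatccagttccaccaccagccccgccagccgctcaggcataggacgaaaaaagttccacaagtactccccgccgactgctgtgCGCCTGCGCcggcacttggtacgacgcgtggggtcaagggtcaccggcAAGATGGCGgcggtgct
Cox7a1: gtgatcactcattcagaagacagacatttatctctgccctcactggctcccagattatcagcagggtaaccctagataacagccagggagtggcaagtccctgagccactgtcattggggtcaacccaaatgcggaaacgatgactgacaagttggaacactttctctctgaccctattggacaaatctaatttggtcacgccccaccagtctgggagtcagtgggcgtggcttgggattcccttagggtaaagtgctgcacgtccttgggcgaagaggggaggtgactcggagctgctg

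The subunit genes were among the abundant transcripts and took a larger share of all FPKM in B16F10 than in MC38. Together they made up 6.36, 7.03 and 6.42% of the total in B16F10 RFP+ libraries 12, 11 and 3, and 7.96, 7.25 and 6.63% in the RFP- libraries of the same numbers. In MC38 the shares were 2.76, 2.77 and 2.60% in RFP+ libraries 1, 2 and 3, and 3.00, 2.91 and 2.61% in RFP- libraries. Every B16F10 library thus lay above every MC38 library, and B16F10 RFP- number 12 lay highest. The median of the members' group means, on the log2(FPKM + 1) scale, was 8.75 in B16F10 RFP+, 8.98 in B16F10 RFP-, 7.58 in MC38 RFP+ and 7.62 in MC38 RFP-. In bulk samples, fewer cells of a type and less RNA per cell cannot be told apart.

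The complexes kept different levels. Median FPKM of complex III subunits ran from 703 to 1167 in B16F10 and from 243 to 276 in MC38, and that of complex I subunits from 277 to 492 and from 148 to 170. Complex II, the smallest, ran from 289 to 333 in B16F10 and from 154 to 165 in MC38. Complex III had the highest median of the 5 complexes in each of the 6 B16F10 libraries, and complex IV had it in each of the 6 MC38 libraries.

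**Figure D1:**
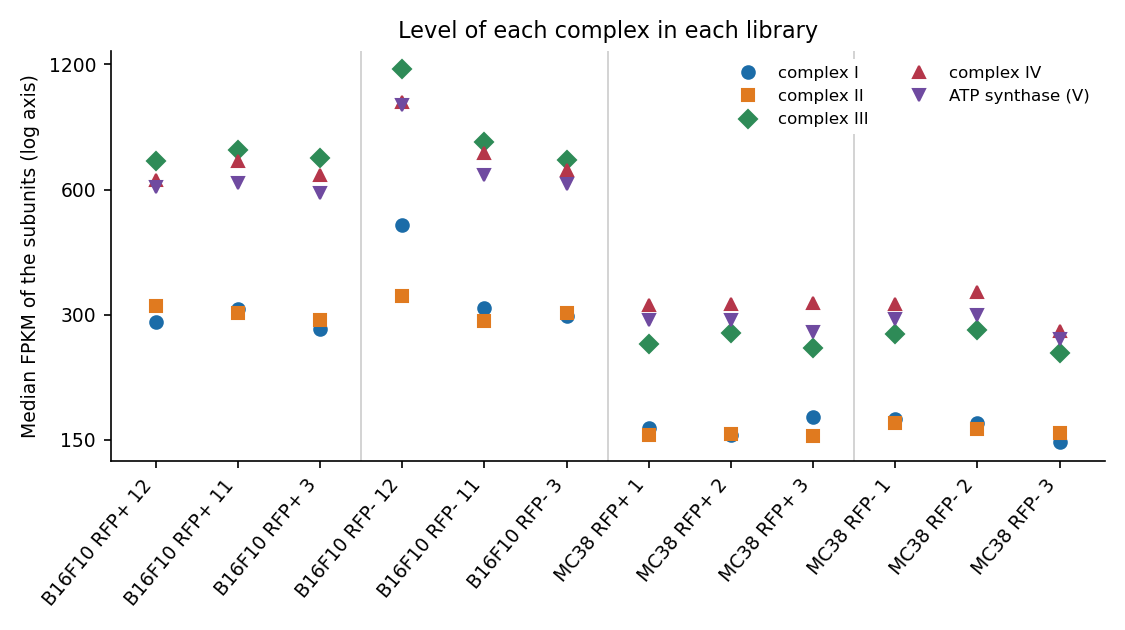
Median FPKM of the subunits of each complex (log axis) in each of the 12 libraries, 1 symbol per complex. All complexes sit higher in the B16F10 libraries and peak in B16F10 RFP- number 12. There complexes I, III, IV and V have medians of 492, 1167, 973 and 955 FPKM. The median of complex II, which has only 4 genes, moves less and reaches 333 FPKM.

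By mean FPKM over all libraries, the leading genes were Ndufa4 for complex I, Sdhb for complex II, Uqcr11 for complex III, Cox8a for complex IV and Atp5b for ATP synthase. Ndufa4 carries a complex I name and is grouped so here by its symbol, but its protein is known as a subunit of complex IV. It ranked the 1st of the 82 members in both B16F10 groups, but the 52nd in MC38 RFP+ and the 39th in MC38 RFP-. In MC38 the 1st rank in both groups belonged to Cox6b1, which lies where complex IV joins into a dimer, with 720 ± 26.5 FPKM (SD, n = 3) in RFP+ and 710 ± 58.1 FPKM (SD, n = 3) in RFP- cells. Atp5b, the catalytic beta subunit of ATP synthase, was the 2nd in both B16F10 groups and the 4th in both MC38 groups.

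The first question was whether the reporter-positive cells differed within B16F10. Subunit genes were mostly lower in RFP+ cells, by little, and none passed the test. Of the 82 genes, 76 were lower and 6 higher, with a median difference of -0.24 on the log2(FPKM + 1) scale, against -0.012 for all 11808 genes, of which 51.4% were lower (n = 3 libraries a group). In limma with Benjamini-Hochberg adjustment, 0 of 82 passed an adjusted p of 0.05, where 0.178% of all genes did. Without adjustment, 9 members had p under 0.05, all lower, where 9.82% of all genes reached that level. A fit with the library numbers as a block called 0 members too, and 1.36% of all genes. After quantile normalization 59 members were lower and 23 higher, with a median of -0.10. The medians as deposited were -0.26 for complex I, -0.088 for complex II, -0.23 for complex III, -0.19 for complex IV and -0.21 for ATP synthase.

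The size of the difference rested on 1 numbered pair. In pair 12, 78 of 82 members were lower in RFP+, with a median of -0.67. Pair 11 had 45 lower and a median of -0.012, and pair 3 had 57 lower and a median of -0.052. Without the B16F10 number 12 pair, 53 members were lower and 29 higher, with a median of -0.029 and 0 called by limma, where 0.0254% of all genes were. Single members then had p under 0.05 without adjustment in each direction, Cox4i2 (0.71) and Cox7a2l (-0.33), where 4.56% of all genes reached that level.

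**Figure D2:**
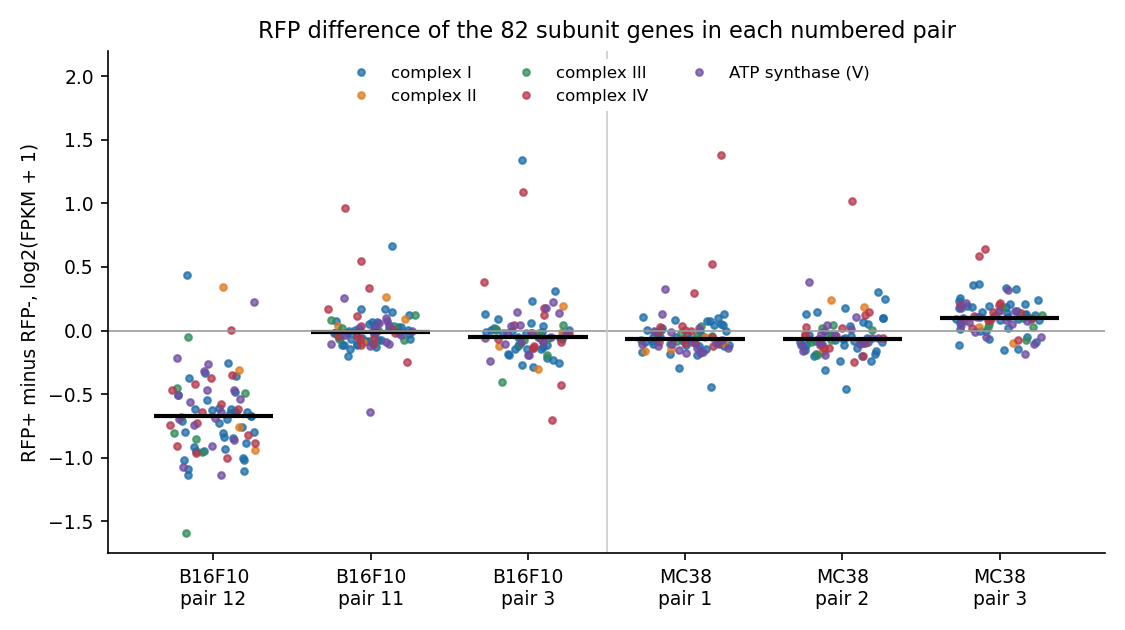
Difference between RFP+ and RFP- libraries of the same number, on the log2(FPKM + 1) scale, for each of the 82 subunit genes (points, coloured by complex) in the 6 numbered pairs. Bars mark the medians: B16F10 pair 12 lies at -0.67, while the other pairs lie between -0.066 and 0.10.

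Within the pair it was the RFP- library that stood apart. B16F10 RFP- number 12 held the highest value of all 12 libraries for 72 of the 82 genes. Against the mean of RFP- numbers 11 and 3, 78 of the 82 genes were higher in it, with a median of 0.57 on the log2 scale, while the median over all genes was 0.025. Uqcrc1, a core subunit of complex III, was 3.05 times as high (1005 against 281 and 378 FPKM), and Ndufs7, an iron-sulphur subunit of complex I, 2.03 times (575 against 287 and 278 FPKM). Complex II did not move as one, since Sdhb, its iron-sulphur subunit, was at 1446 against 781 and 762 FPKM, and Sdha, its flavoprotein, at 200 against 235 and 247 FPKM. Ndufs1, the largest complex I subunit, was also lower in that library, at 85.8 against 127 and 120 FPKM.

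On balance, genes with GC-rich transcripts stood higher in it. Across genes, which are not independent replicates, Spearman's rho of this difference with transcript GC content was 0.38 over 81 members and 0.57 over 10934 genes kept that had a transcript. The same measure over all genes lay between -0.49 and 0.15 in the other 11 libraries, where the values of 1 group are tied to each other. Genes with shorter transcripts stood higher in it too over all genes, with a rho with transcript length of -0.39, against -0.13 to 0.29 in the other 11 libraries, though not over the members (rho 0.028). In pair 12, cytosolic ribosomal protein genes were lower in RFP+ for 80 of 81 (median -0.74) and mitochondrial ones for 72 of 77 (median -0.55). The cytosolic ones were also lower for 78 in B16F10 pair 11 (median -0.11) and for 49 in pair 3 (-0.047). In MC38 pairs 1 and 2 they were lower for 77 and 72 (-0.12 in each), and in pair 3 higher for 76 (0.13). The part of transcript GC content and length in the B16F10 difference was not tested.

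**Figure D3:**
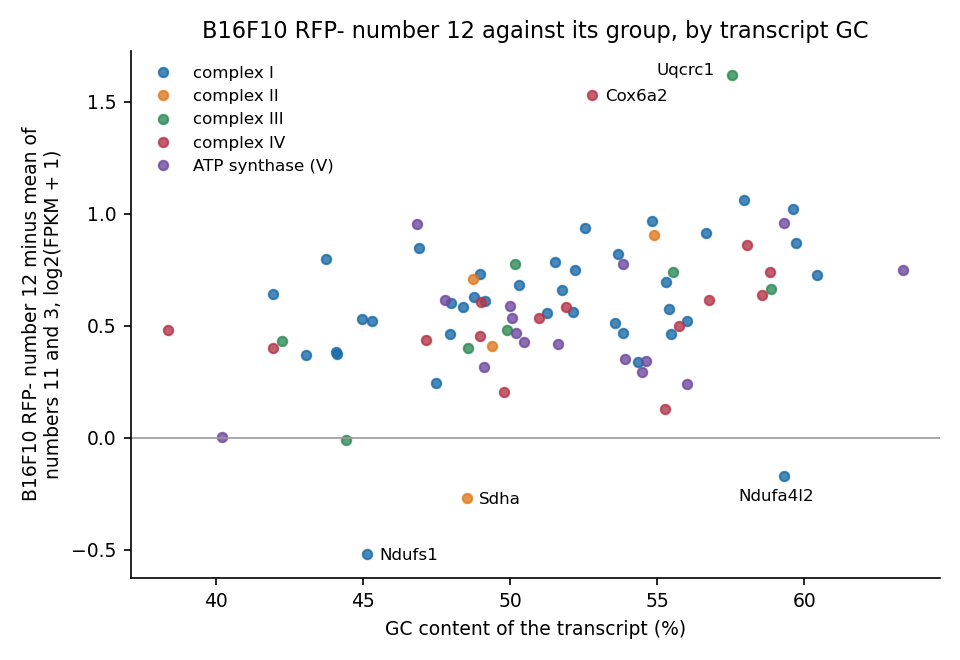
Transcript GC content (%) of 81 subunit genes against how far B16F10 RFP- number 12 lay from the mean of RFP- numbers 11 and 3 on the log2(FPKM + 1) scale, coloured by complex. Most points lie above 0 and the cloud climbs with GC content (rho 0.38), with Uqcrc1 at 1.62 and Ndufs1 at -0.52.

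Cox7a2l, which takes part in joining complexes III and IV into a supercomplex, had the smallest p of the members. It was at 96.8, 97.5 and 86.3 FPKM in RFP+ libraries 12, 11 and 3, and at 134, 116 and 116 FPKM in the RFP- libraries. All 3 RFP+ values lay below all RFP- values. The difference was -0.38 ± 0.11 (SE), with a limma adjusted p of 0.377, and 0.133 with the block. In MC38 it was -0.072 ± 0.11.

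The other genes named by their p values were Atp5sl, Cox4i2 and Atp5s. Atp5sl, a factor related to ATP synthase by name and known for complex I assembly, was at 7.67, 6.05 and 7.79 FPKM in RFP+ and 13.5, 9.998 and 9.05 FPKM in RFP- cells (-0.53 ± 0.20, limma adjusted p = 0.482). Its groups did not overlap in B16F10. Cox4i2, the complex IV isoform known to respond to low oxygen, was at 2.02, 1.57 and 3.05 against 2.01, 1.04 and 0.903 FPKM (0.48 ± 0.27, limma adjusted p = 0.512). Its groups overlapped, and its values are near the smallest that were kept. Atp5s, known as coupling factor B, was at 11.7, 12.4 and 11.3 against 9.89, 10.2 and 9.52 FPKM (0.24 ± 0.16, limma adjusted p = 0.558). It was the only member whose RFP+ values all lay above the RFP- values, while 13 members had all RFP+ values below, where 5.72% and 6.22% of all genes did so.

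Within MC38 the subunit genes showed no common direction. Of the 82 genes, 39 were higher and 43 lower in RFP+ cells, with a median of -0.0021 against 0.0017 for all genes, of which 49.4% were lower. In limma, 0 members passed, where 0.0254% of all genes did. Without adjustment, 1 member, Cox7a1, had p under 0.05, where 3.35% of all genes reached that level. The single model pooled the spread of all groups, so these p-values also reflect the B16F10 RFP- library that stood apart. In limma without the pair of that library, Cox7a1, Ndufa4 and Ndufs8 had unadjusted p of 0.016, 0.041 and 0.049. The share of all genes under 0.05 in that fit is not given here, so these p-values are no result about the members as a set. No member passed after adjustment there either. With the library numbers as a block 0 members passed, where 0.44% of all genes did. Pairs 1 and 2 had medians of -0.064 and -0.066, with 59 and 58 members lower, and pair 3 had 0.10, with 66 higher. RFP- number 3 was the highest of its group for only 4 of the 82 genes. After scaling to the macrophage core genes the split was 10 higher and 72 lower (median -0.10, against -0.066 for all genes). There, 27 members lay above the median of all genes. After quantile normalization the split was 25 and 57 (median -0.047, against -0.012 for all genes). The split thus moved with the scaling, while the members' median stayed below 0. As single libraries were left out, that median as deposited ran from -0.073 to 0.033.

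Cox7a1, the isoform of heart and skeletal muscle, had the smallest p. It was at 17.5, 13.6 and 14.9 FPKM in MC38 RFP+ libraries 1, 2 and 3, and at 6.10, 12.4 and 9.60 FPKM in RFP- libraries. The groups did not overlap, as for 6.33% of all genes in that direction, and the difference was 0.69 ± 0.24 (limma adjusted p = 1.0, and 0.512 with the block). In B16F10 the means were 40.5 ± 7.03 and 40.5 ± 10.03 FPKM (SD, n = 3 each) and the difference was 0.014 ± 0.24.

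The 2 genes with the smallest p among those lower in MC38 RFP+ cells were Ndufa4 and Ndufs8. Ndufa4 was at 166, 129 and 177 FPKM in RFP+ and at 226, 177 and 191 FPKM in RFP- libraries (-0.34 ± 0.17, limma adjusted p = 1.0). Ndufs8, an iron-sulphur subunit of complex I, was at 170, 172 and 161 against 208, 191 and 179 FPKM (-0.20 ± 0.21, limma adjusted p = 1.0). Without the B16F10 pair whose RFP- library stood apart, the SE of Ndufa4 was 0.14 and that of Ndufs8 0.090. Both had all RFP+ values below all RFP- values, and they were the only members to do so, where 4.98% of all genes did. Cox4i2 was at 1.51, 3.05 and 2.53 against 1.04, 1.001 and 2.08 FPKM (0.50 ± 0.27, limma adjusted p = 1.0), with groups that overlapped.

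Over all 6 numbered pairs, 2 of the 82 members were higher in RFP+ in each pair and 8 were lower, 2.44% and 9.76%, where 4.52% and 4.01% of all genes were. The 2 were Atp5s and Cox4i2, the latter by 0.0019 in B16F10 pair 12. Cox7a2l, Atp5b and Ndufs8 were among the 8. These counts are descriptions, and no member passed the test in either tumour.

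The difference between the tumours' RFP differences was tested directly. Its median over the members was -0.25 (-0.058 after quantile normalization, with 52 members lower), with 75 genes more negative in B16F10 (52.4% of all genes), and -0.019 without the B16F10 number 12 pair, with 45. In limma, 0 members passed, as did 0.0% of all genes, or 0.0339% with the block, which called 0 members, and 1 member had p under 0.05 without adjustment, where 3.85% of all genes did. That member was Atp5sl, at -0.70 ± 0.29 (limma adjusted p = 0.895). Cox7a1 stood at -0.68 ± 0.34 with the same adjusted p.

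Between tumours the subunit genes differed widely. In RFP+ cells 76 of 82 were higher in B16F10 by limma (adjusted p under 0.05) and 2 were lower, where 35.2% of all genes were called higher and 20.0% lower. The median was 0.99 on the log2(FPKM + 1) scale, a 1.98-fold difference, against 0.23 for all genes. In RFP- cells 77 were higher and 1 lower, where 37.8% and 21.9% of all genes were, with a median of 1.25 (2.38-fold) against 0.23. Without the number 12 pair the calls were 77 higher and 2 lower in RFP+ cells (median 1.02), where 36.6% and 20.6% of all genes were. In RFP- cells they were then 76 and 1 (median 1.07), where 36.6% and 21.0% were. Ndufa4l2 met the filter on low values through B16F10 alone, so the filter decided its call, and it is among the higher members in each count of this paragraph. Without it 75 of 81 were higher and 2 lower in RFP+ cells (median 0.99), and 76 and 1 in RFP- cells (median 1.24), where 32.4% and 19.8%, and 35.2% and 21.7%, of the 10743 genes that reached 1 FPKM in both tumours were. Values did not overlap between tumours for 77 higher members in RFP+ and 78 in RFP- cells, where 43.9% and 39.2% of all genes were higher without overlap. Libraries of both gates with the same number may come from the same mouse, so the results of the gates are not independent of each other.

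Each complex took part. Ndufa4l2 left out, in RFP+ cells 37 of 37 genes of complex I, 4 of 4 of complex II, 7 of 8 of complex III, 11 of 15 of complex IV and 16 of 17 of ATP synthase were called higher, and in RFP- cells 37, 4, 8, 11 and 16. The medians in RFP+ cells were 0.94, 0.97, 1.07, 0.99 and 1.04. In RFP- cells they were 1.21, 0.99, 1.33, 1.35 and 1.17. Without the number 12 pair the RFP- medians, Ndufa4l2 included, were 1.06, 0.90, 1.16, 1.12 and 1.06, and Ndufs5 of complex I was no longer called (0.56 ± 0.25, limma adjusted p = 0.0762). Not called in RFP+ cells were Uqcrc1 (0.64 ± 0.33, called without the number 12 pair), Atp5sl (-0.24 ± 0.20), Cox4i2 (-0.063 ± 0.27) and Cox6b2 (-0.59 ± 0.35). In RFP- cells these were Atp5sl (0.46 ± 0.20), Cox4i2 (-0.036 ± 0.27), Cox6b2 (-0.0080 ± 0.35) and Cox7a2l (-0.025 ± 0.11).

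Of the 82 members, 77 to 82 were higher in B16F10 under each of 3 other scalings, but the size of the difference moved. Quantile normalization gave medians of 0.93 in RFP+ and 0.997 in RFP- cells, and upper-quartile scaling 0.88 and 1.08. Scaling to the macrophage core genes gave 2.93 and 3.27, moved the median of all genes to 1.86 and 1.94, and made all 82 members higher in B16F10. Under the first of these the median of all genes was 0.055 in RFP+ and 0.025 in RFP- cells, and under the other 0.14 and 0.084. Of all genes called in RFP+ cells, 63.8% were higher as deposited, 52.75% after quantile normalization, 58% after upper-quartile scaling and 96.7% after core gene scaling, and in RFP- cells 63.35%, 52%, 55.8% and 96.6%.

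The pigment cell markers and the macrophage core genes differed between the tumours too, in opposite directions. Of the 12 pigment markers, 7 met the filter through B16F10 alone, so the filter decided their direction. The other 5 were called higher in both gates (medians 9.57 and 9.67), where 32.4% and 35.2% of the 10743 genes that reached 1 FPKM in both tumours were. Of the 15 macrophage core genes, 14 were called lower in each gate (medians -2.01 and -2.20), where 19.8% and 21.7% of those 10743 genes were. In MC38 RFP+ and RFP- cells 7 and 8 of the 12 pigment markers were under 1 FPKM in all 3 libraries, and 0 of the 12 were in either B16F10 group. The part of RNA from pigment cells in the subunit genes' difference was not tested. Tumour line, sequencing depth and any difference in handling cannot be told apart here, because each tumour had its own libraries.

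**Figure D4:**
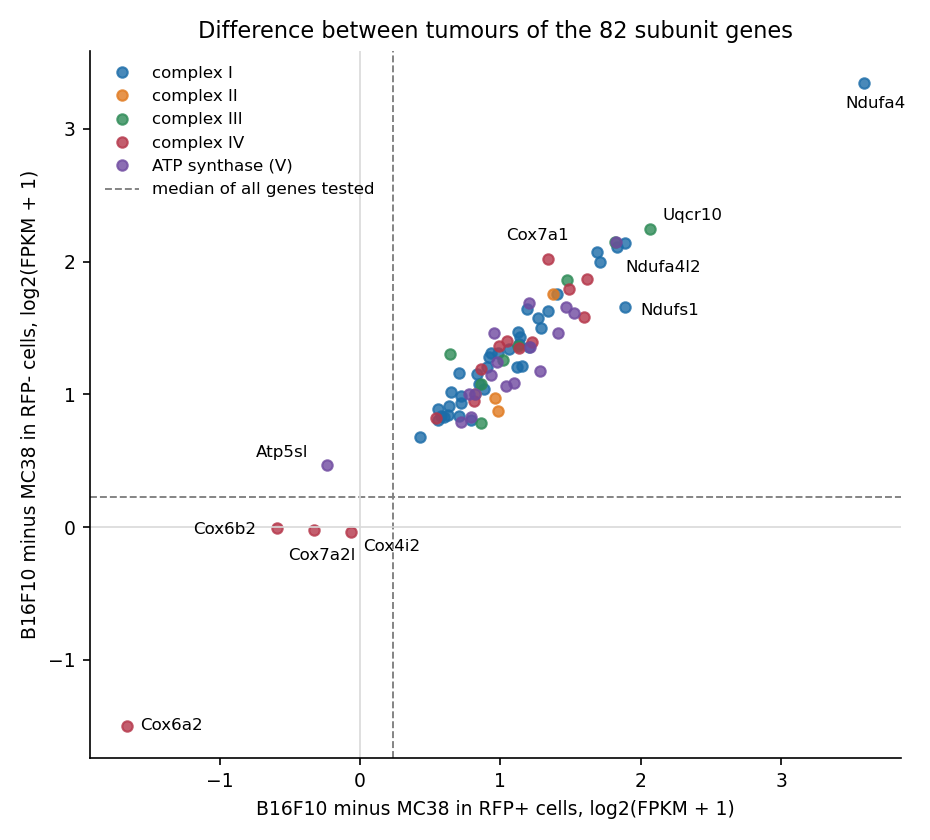
Difference between B16F10 and MC38 libraries in RFP+ (x axis) and RFP- cells (y axis), on the log2(FPKM + 1) scale, for each of the 82 subunit genes, coloured by complex. Dashed lines mark the medians of all genes tested (0.23 on both axes). Ndufa4 (3.59 and 3.35) and Cox6a2 (-1.66 and -1.50) lie farthest from the cloud of the other genes.

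Ndufa4 differed most. It was at 1860, 2045 and 1759 FPKM in B16F10 RFP+ libraries 12, 11 and 3, and at 2405, 2008 and 1689 FPKM in B16F10 RFP- libraries, against 129 to 226 FPKM in the 6 MC38 libraries given above. The B16F10 and MC38 values did not overlap in either gate. The difference was 3.59 ± 0.17 in RFP+ and 3.35 ± 0.17 in RFP- cells, 12-fold and 10.2-fold (limma adjusted p = 3.0e-09 and 5.5e-09). The gene lies at chr6:11900292-11907497 on the minus strand of GRCm38, and no exon of another annotated gene overlaps it.

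Uqcr10, a small subunit of complex III, came next. It was at 1190, 1438 and 1180 FPKM in B16F10 RFP+ and at 2074, 1318 and 1168 FPKM in B16F10 RFP- libraries, against 292 to 315 and 286 to 332 FPKM in MC38. The groups did not overlap, and the difference was 2.07 ± 0.19 and 2.25 ± 0.19 (limma adjusted p = 1.1e-06 and 4.8e-07). The other genes among the 10 largest called differences in both gates were Ndufa5, Ndufb2 and Ndufb9 of complex I, Uqcrq of complex III, and Atp5o, the stalk subunit of ATP synthase also called OSCP, with Ndufa4l2 described below. They lay between 1.69 and 1.89 in RFP+ and between 1.997 and 2.15 in RFP- cells. Ndufs1 was among the 10 in RFP+ cells only (1.89 ± 0.16, and 1.66 ± 0.16 in RFP-), and Cox7a1 (2.02 ± 0.24) and Cox5b (1.87 ± 0.17) in RFP- cells only, with 1.34 ± 0.24 and 1.62 ± 0.17 in RFP+. Ndufa5, whose promoter window holds an NRF1 motif, was at 506, 581 and 442 FPKM in B16F10 RFP+ and at 134, 128 and 147 FPKM in MC38 RFP+ libraries.

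Ndufa4l2, a relative of Ndufa4 known to be induced by low oxygen, was at 1.02, 6.84 and 2.53 FPKM in B16F10 RFP+ and at 3.05, 3.95 and 3.21 FPKM in RFP- libraries. In MC38 it was listed at 0 in 4 of 6 libraries and reached 0.235 FPKM. It met the filter through B16F10 alone, so it had to differ, and its differences of 1.83 and 2.11 in RFP+ and RFP- cells, which depend on the added 1 FPKM, are given with no test. Its exons overlap those of Shmt2 on the other strand, which ran from 74.96 to 266 FPKM in B16F10 and from 22.5 to 31.7 FPKM in MC38. As the strand setting is not given in the sources used here, their reads cannot be told apart.

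Cox6a2, the muscle isoform of a complex IV subunit, went the other way. It was at 3.55, 3.07 and 2.39 FPKM in B16F10 RFP+ and at 7.86, 2.62 and 1.60 FPKM in B16F10 RFP- libraries, against 14.3, 9.60 and 11.1 FPKM in MC38 RFP+ and 15.4, 8.56 and 10.9 FPKM in MC38 RFP- libraries. All B16F10 values lay below all MC38 values. The difference was -1.66 ± 0.37 and -1.50 ± 0.37 (limma adjusted p = 0.0018 and 0.0033), but 0.0040 in RFP+ cells after scaling to the macrophage core genes. An exon of Itgad on the other strand overlaps it, and Itgad was at or under 1.75 FPKM in each library. Its partner Cox6a1, the isoform of most tissues, rose in B16F10 (0.99 ± 0.19 in RFP+ and 1.36 ± 0.19 in RFP-), from 414 to 455 FPKM in MC38 RFP+ to 832 to 901 FPKM in B16F10 RFP+ libraries.

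Cox7a2l was the other member called lower in B16F10, in RFP+ cells only, at -0.33 ± 0.11 (limma adjusted p = 0.0252). Its B16F10 RFP+ values, given above, lay below the 116, 124 and 113 FPKM of MC38 RFP+ libraries. The call was lost without the third B16F10 RFP+ library (number 3, limma adjusted p = 0.102), without MC38 RFP+ number 1 (0.0563) and without number 2 (0.0901), and scaling to the macrophage core genes turned the difference to 1.61. With the block its adjusted p was 0.0254. Its relatives Cox7a2, the isoform of most tissues, and Cox7a1 both rose in B16F10, by 1.49 ± 0.16 and 1.34 ± 0.24 in RFP+ and by 1.79 ± 0.16 and 2.02 ± 0.24 in RFP- cells. Cox7a2 was at 546, 569 and 499 FPKM in B16F10 RFP+ and at 192, 192 and 189 FPKM in MC38 RFP+ libraries.

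**Figure D5:**
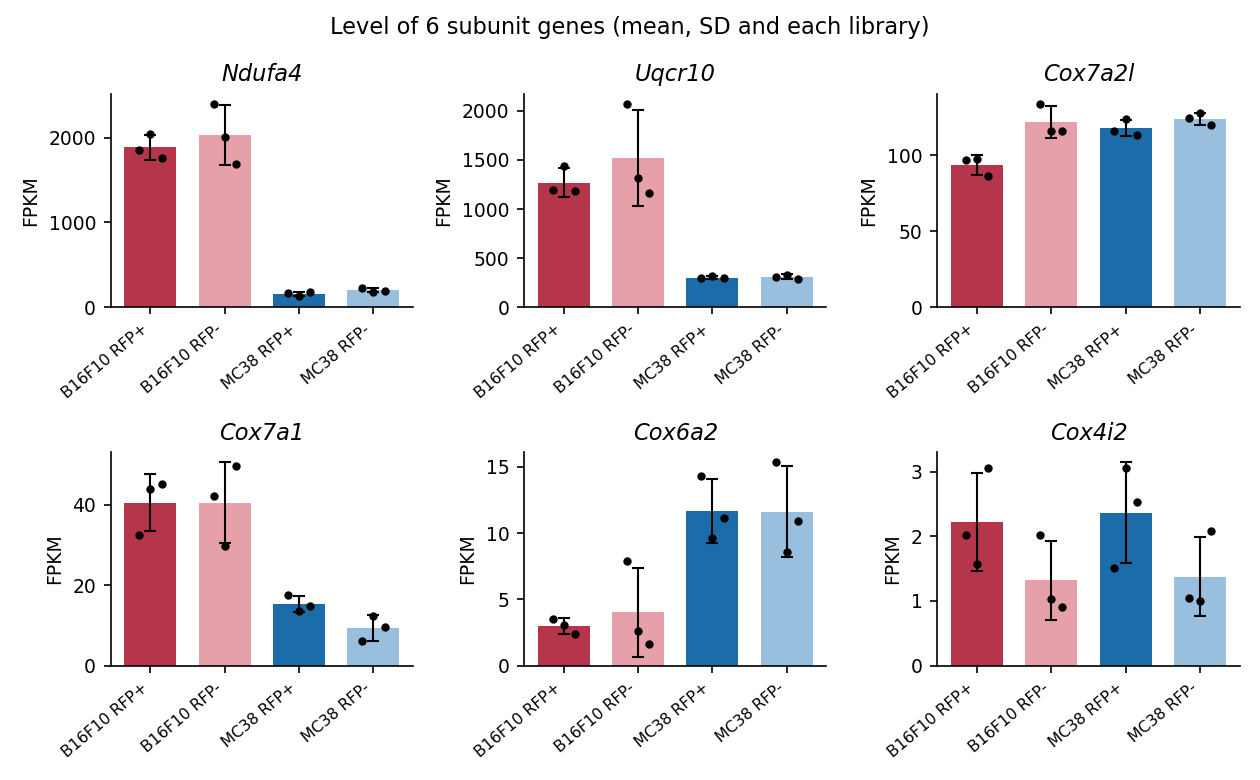
FPKM of Ndufa4, Uqcr10, Cox7a2l, Cox7a1, Cox6a2 and Cox4i2 in the 4 groups; bars are means, whiskers SD (n = 3) and points single libraries, each panel with its own axis from 0. Ndufa4 and Uqcr10 are high in B16F10, Cox6a2 is low there, Cox7a2l is lowest in B16F10 RFP+ cells, and the Cox4i2 groups overlap.

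The isoforms of the other complex IV subunits kept their order in both tumours. Cox4i1, the isoform of most tissues, had means of 1094 ± 39.8 in B16F10 RFP+ and 601 ± 13.7 FPKM in MC38 RFP+ cells (SD, n = 3 each), while Cox4i2 stood at 2.21 ± 0.758 and 2.36 ± 0.782 FPKM. Cox6b1 rose by 0.54 ± 0.16 in RFP+ and 0.82 ± 0.16 in RFP- cells of B16F10, the least of the called complex IV members, and Cox6b2, its testis isoform, did not exceed 2.45 FPKM in any library. Cox8a rose by 1.05 ± 0.18 and 1.40 ± 0.18, from 596 to 663 FPKM in MC38 RFP+ to 1206 to 1468 FPKM in B16F10 RFP+ libraries. Cox8b, the muscle isoform, was between 0.449 and 4.004 FPKM in B16F10 and listed at 0 in each of the 6 MC38 libraries. It had reached 1 FPKM in too few libraries to be tested. Cox8c was listed at 0 in all 12, and Cox7b2 did not exceed 0.106 FPKM.

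The 3 genes Atp5g1, Atp5g2 and Atp5g3 encode the same mature c subunit of the ATP synthase rotor, behind different import signals. All rose in B16F10 RFP+ cells, by 1.47 ± 0.21, 0.96 ± 0.19 and 1.41 ± 0.16. Atp5g3 had the highest mean of these in each group, at 825 ± 31.7 FPKM in B16F10 RFP+ and 309 ± 16.9 FPKM in MC38 RFP+ cells (SD, n = 3 each). Atp5g2 was above Atp5g1 in both MC38 groups (253 against 214 FPKM in RFP+, 240 against 235 FPKM in RFP-) and below it in both B16F10 groups (493 against 595 FPKM and 681 against 784 FPKM). The RFP- means lie within the SD of each other in both tumours.

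Complex II rose with the chain. Sdha, Sdhb, Sdhc and Sdhd differed by 0.98 ± 0.13, 1.37 ± 0.20, 0.82 ± 0.19 and 0.96 ± 0.13 between tumours in RFP+ cells. In RFP- cells the values were 0.87 ± 0.13, 1.76 ± 0.20, 1.005 ± 0.19 and 0.98 ± 0.13. Sdhb was at 752, 733 and 619 FPKM in B16F10 RFP+ and at 275, 253 and 282 FPKM in MC38 RFP+ libraries, with no overlap. Sdha was at 253, 241 and 227 against 118, 120 and 125 FPKM, and did not overlap either.

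Genes that feed or serve the chain differed between the tumours as well. In the counts of these lists, rose and fell mean called higher and lower in B16F10 by limma. Of 20 electron carriers and feeders, 15 rose and 3 fell in B16F10 RFP+ cells and 14 and 3 in RFP- cells, beside the all-gene percentages above. Cycs, cytochrome c, was at 505 ± 42.3 FPKM in B16F10 RFP+ and 142 ± 1.18 FPKM in MC38 RFP+ cells (1.82 ± 0.15), and Coq7, of ubiquinone synthesis, at 86.7 ± 4.64 and 23.7 ± 3.34 FPKM (1.84 ± 0.13). Of 19 genes of the TCA cycle, 19 rose in RFP+ and 18 in RFP- cells, with medians of 1.22 and 1.25. Idh3a, a catalytic subunit of NAD-dependent isocitrate dehydrogenase, led with 215.5 ± 19.1 against 37.6 ± 1.66 FPKM in RFP+ cells (2.48 ± 0.12, SD with n = 3 each). Of 48 assembly factors, 35 rose in each gate (medians 0.82 and 0.81) and 0 fell, and Ecsit, a complex I assembly factor, was at 37.0 ± 5.24 against 10.9 ± 2.89 FPKM in RFP+ cells.

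Of all genes, 35.2% were called higher and 20.0% lower in RFP+ cells, and 37.8% and 21.9% in RFP- cells. Of 9 carriers for nucleotides, phosphate and protons, 8 rose and 1 fell in each gate. Slc25a4, which exchanges ADP for ATP, was at 676 ± 44.7 FPKM in B16F10 RFP+ and 164 ± 15.7 FPKM in MC38 RFP+ cells (2.04 ± 0.13). Mitochondrial ribosomal protein genes rose for 64 of 77 in RFP+ and 68 of 77 in RFP- cells (medians 0.77 and 1.03). Of 81 cytosolic ones, 48 rose and 1 fell in RFP+ and 68 rose in RFP- cells, with medians of 0.45 and 0.70. Of 16 regulators of mitochondrial gene expression, 15 reached 1 FPKM in both tumours. Of these, limma called 4 higher in RFP+ and 7 in RFP- cells (medians 0.38 and 0.36). These are 26.7% and 46.7%, where 32.4% and 35.2% of the 10743 genes that reached 1 FPKM in both tumours were called higher. The 16th, Ppargc1a, which encodes the coactivator PGC-1 alpha and met the filter through B16F10 alone, was at 25.3 ± 4.22 FPKM in B16F10 RFP+ and 18.8 ± 6.74 FPKM in B16F10 RFP- cells, against 0.0338 ± 0.0214 and 0.0679 ± 0.0559 FPKM in MC38 (SD, n = 3 each). Between RFP+ and RFP- cells, 0 genes of these lists passed limma in either tumour.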

How the data were processed

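Each of the 12 libraries was deposited as a table of FPKM per gene symbol, the unit per the file headers. RNA was taken up in TRI Reagent and made into libraries with SMART-Seq HT and Nextera XT kits, per the labels' protocols. The submitters' processing notes name Cuffdiff 2.2.1, SAMtools 0.1.18, Bowtie2 2.2.8 and TopHat2 2.1.1, and the build mm10. The annotation, the strand setting and any scaling between libraries are not given here, so genes whose exons overlap on opposite strands (26 members), and members with near-identical pseudogene copies, may share reads. Read counts were not used here, and depth is known only relative to other libraries.

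FPKM values were used as deposited, as log2(FPKM + 1), for the 11808 genes that reached 1 FPKM in 3 or more libraries. A single limma 3.58.1 model (R 4.3.3, trended eBayes) held the 4 group means with 8 residual degrees of freedom, and two-sided p-values were adjusted over all genes kept by the Benjamini-Hochberg method, with a threshold of 0.05. The script was tested on simulated data. The 5 comparisons were RFP+ minus RFP- in each tumour, the difference of these, and B16F10 minus MC38 in each gate. Deviations from the group means correlated at 0.228 to 0.443 in the 6 pairs of equal title number within a tumour and at -0.306 to 0.0178 in the 12 pairs of unequal number. Since the deviations within a group sum to 0, the latter values are tied to the former and are no separate contrast. From the former, the numbers were taken to pair the libraries, and a fit with the number as a block was an alternative. The block was a fixed term in the reporter comparisons and their difference. In the comparisons between tumours it was a random term, with a correlation within pairs of 0.291. Other alternatives were another pseudocount, filter or scaling, array weights, groups fitted alone, and libraries left out.

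Gene positions came from GENCODE M21 on GRCm38 and promoter windows from RefSeq. Members and lists were chosen with earlier results of these data known. Named genes were those called, or the 10 largest where more were called, the most abundant of each complex, the 2 smallest p in each direction of the reporter comparisons, the isoform sets, and up to 3 genes of each other list. Ndufs5, Ndufs6, Ndufs7 and Uqcrc1, the genes named for their direction in every pair, and those not called between tumours were chosen after their values were seen.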

Additional observations from a re-analysis of the deposited data

How the results depend on the processing

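With the library number as a block no member changed its call, in any of the 5 comparisons, and the lowest adjusted p within B16F10 was 0.133 by limma. Calls among all genes within B16F10 changed more, from 15 higher and 6 lower to 98 and 62 with the block and 3 and 0 without the number 12 pair. The within-B16F10 median of the members was -0.029 without that pair, with and without the block, and the median difference between the tumours' reporter differences was then -0.019 in both fits, and -0.047 with array weights. Leaving out 1 library at a time gave -0.375 to -0.043 for the latter, the second value without B16F10 RFP- number 12. Complex II within B16F10 turned to 0.047 with quantile normalization and 0.0027 with array weights, and ran from -0.207 to 0.026 as single libraries were left out. For the difference of differences, complex II turned to 0.068, 0.0017 and, without the pair in both fits, 0.040, with -0.219 to 0.035 over single libraries, and complex V to 0.065, 0.018 and 0.021, with -0.306 to 0.016. Between tumours, scaling to macrophage core genes gave medians of 2.93 in RFP+ and 3.265 in RFP- cells with 0 members lower in either, and Cox6a2 turned to 0.0040 in RFP+ cells. In RFP- cells the median was 0.997 with quantile normalization and 1.03 with array weights. The number of members called lower in RFP+ cells was 1 to 2 as single libraries were left out. The median levels under core gene scaling were 9.66, 10.07, 6.53 and 6.675 in B16F10 RFP+, B16F10 RFP-, MC38 RFP+ and MC38 RFP-. That of B16F10 RFP- was 8.77 without the pair and 8.77 to 9.11 over single libraries. The cause was not tested for any of these. Groups fitted alone gave no value for the difference of differences. The number of libraries, 3 a group, limits the precision.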

Other observations

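AA467197 (also called Nmes1), a gene related to Ndufa4 and chosen after its values were seen, lay the other way from Ndufa4. It was at 12.7, 36.3 and 21.7 FPKM in B16F10 RFP+ libraries 12, 11 and 3 and at 5.02, 14.4 and 11.6 FPKM in the RFP- libraries, against 326, 498 and 281 FPKM in MC38 RFP+ libraries 1, 2 and 3 and 184, 276 and 148 FPKM in the RFP- libraries. The difference of B16F10 from MC38 was -3.98 ± 0.39 in RFP+ and -4.23 ± 0.39 in RFP- cells (limma adjusted p = 2.7e-06 and 1.4e-06). Within each numbered pair of both tumours the RFP+ library was the higher, by 1.11 ± 0.39 in B16F10 and 0.86 ± 0.39 in MC38, and neither passed the test (limma adjusted p = 0.460 and 1.0).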
